A study of Mus musculus with 6 samples.

Results

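Basophils, mast cells and eosinophils are granulocytes that grow from bone marrow, and 7 of their marker genes were followed in exosomes, small membrane vesicles shed into the medium, from mouse dendritic cell cultures. The genes were Hdc, Gata2, Ms4a2, Mcpt8, Cpa3, Prg2 and Ear2, chosen by name as markers of these cells. All 7 had values, among 12384 genes in the table, and each gene's level was the sum over its listed transcripts. Levels are in FPKM, read fragments per unit of transcript length and of library size, so levels of different genes can be compared.

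Marrow cells of C57BL/6 mice were grown in GM-CSF (20 ng/ml) plus interleukin-4 (10 ng/ml). On day 7 they received PBS (read here as the immature group) or 5 µg/ml lipopolysaccharide (read as the mature group), a bacterial cell wall component, for 24 h, after which the cells were washed. Exosomes were taken from the medium of a further 48 h by differential ultracentrifugation, with 3 libraries in each group. The cultures were not sorted, loosely adherent marrow cells being kept after non-adherent cells were washed away, so a library can hold RNA from any cell type of the dish. Whether the 3 libraries of a group stem from different animals or dishes is not labelled, so the p-values reflect variation among these libraries only, possibly technical. A treatment tag that reads untreated for all 6 libraries goes against the stated protocol and was not used.

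These granulocytes store preformed mediators in granules and release them when triggered, for basophils and mast cells through IgE bound to its high-affinity receptor. Hdc encodes histidine decarboxylase, which makes histamine, and is also expressed by macrophages and dendritic cells. Gata2 encodes a zinc finger transcription factor of blood progenitors, mast cells and basophils. Ms4a2 encodes the beta chain of the IgE receptor. Mcpt8 encodes a serine protease of mouse basophils, and Cpa3 a carboxypeptidase of mast cell and basophil granules. Prg2 encodes the major basic protein of eosinophil granules, and Ear2 an eosinophil-associated ribonuclease that monocytes and macrophages can express too. In RNA from mixed cultures, fewer cells of a type and less RNA per cell cannot be told apart, and for exosomes neither can the number of vesicles a cell releases.

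The DNA before the starts of 4 of the genes is shown because Gata2, itself one of the 7, encodes a factor that binds GATA sequences. Each line holds the 250 bases before a RefSeq start on GRCm38.p6, 5′ to 3′ on the strand of the gene. For all 4 genes the RefSeq gene span reaches further upstream than this start, and for Hdc and Mcpt8 it covers the whole window. These windows end at the base before the first base of the listed transcripts Ms4a2-201, Cpa3-201, Hdc-201 and Mcpt8-201. Capitals mark 4 spellings on either strand, namely AGATAA, then AGATAG, then TGATAA and finally TGATAG. The windows lie at chr19:11623720-11623969, chr3:20242182-20242431, chr2:126618679-126618928 and chr14:56085198-56085447, all on the minus strand.
Ms4a2: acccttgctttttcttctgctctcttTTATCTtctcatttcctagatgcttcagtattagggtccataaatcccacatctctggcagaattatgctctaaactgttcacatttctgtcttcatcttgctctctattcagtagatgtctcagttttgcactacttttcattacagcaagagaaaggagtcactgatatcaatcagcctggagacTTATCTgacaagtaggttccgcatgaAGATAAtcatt
Cpa3: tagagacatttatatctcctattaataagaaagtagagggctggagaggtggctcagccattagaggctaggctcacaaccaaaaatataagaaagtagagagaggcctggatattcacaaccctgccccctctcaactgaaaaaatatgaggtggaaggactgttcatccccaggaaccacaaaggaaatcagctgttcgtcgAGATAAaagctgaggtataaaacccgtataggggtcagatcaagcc
Hdc: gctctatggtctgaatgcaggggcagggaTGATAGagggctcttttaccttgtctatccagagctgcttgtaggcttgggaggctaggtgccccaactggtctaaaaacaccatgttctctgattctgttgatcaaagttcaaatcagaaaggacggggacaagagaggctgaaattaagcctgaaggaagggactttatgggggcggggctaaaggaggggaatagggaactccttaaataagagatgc
Mcpt8: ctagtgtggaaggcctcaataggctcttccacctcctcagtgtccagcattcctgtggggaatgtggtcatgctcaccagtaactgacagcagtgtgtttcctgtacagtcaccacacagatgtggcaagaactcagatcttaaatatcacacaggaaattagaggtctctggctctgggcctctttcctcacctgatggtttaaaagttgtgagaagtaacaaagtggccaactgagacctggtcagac

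The Ms4a2 window held 3 matches, all of AGATAA, which covered bases 224 to 219, 37 to 32 and 11 to 6 before the start, the first 2 on the opposite strand. The Cpa3 window held AGATAA at bases 46 to 41 before the start and the Hdc window held TGATAG at bases 221 to 216, both on the strand of the gene. The windows of Mcpt8 and Ear2 and both windows of Gata2 held none. RefSeq windows were matched by symbol for 6 of the 7 genes, the exception being Prg2. Of 32851 windows of this length, 26.54% held at least 1 match and 1.35% held 3 or more, and matches are letters in a window, not measured binding.

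Across the 7 genes, the immature and mature libraries separated for Hdc, Gata2 and Mcpt8 and overlapped for Ms4a2, Cpa3, Prg2 and Ear2. Mcpt8 stood furthest apart, its lowest mature level being 5.05 times its highest immature level. Hdc and Gata2 had the same ratio at 1.61 times each. Of the 6 genes tested, 0 passed limma over all 10277 genes at an adjusted p under 0.05, where 0.185% of genes were called higher. At an unadjusted p under 0.05, 4 were higher and 0 lower, against 9.52% and 0.224% of all genes. Groups that did not overlap, with mature above, were found for 3 of the 6, against 16.7% of all genes. The tested genes had to reach 0.5 FPKM in at least 3 of the 6 libraries. Gata2, Mcpt8 and Cpa3 had fewer than 3 immature libraries at that level and passed through their mature ones. Counts, ranks and medians over the tested genes are therefore a description only. In simulated data small changes were mostly not called, so 0 genes passing says little about such changes.

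**Figure D1:**
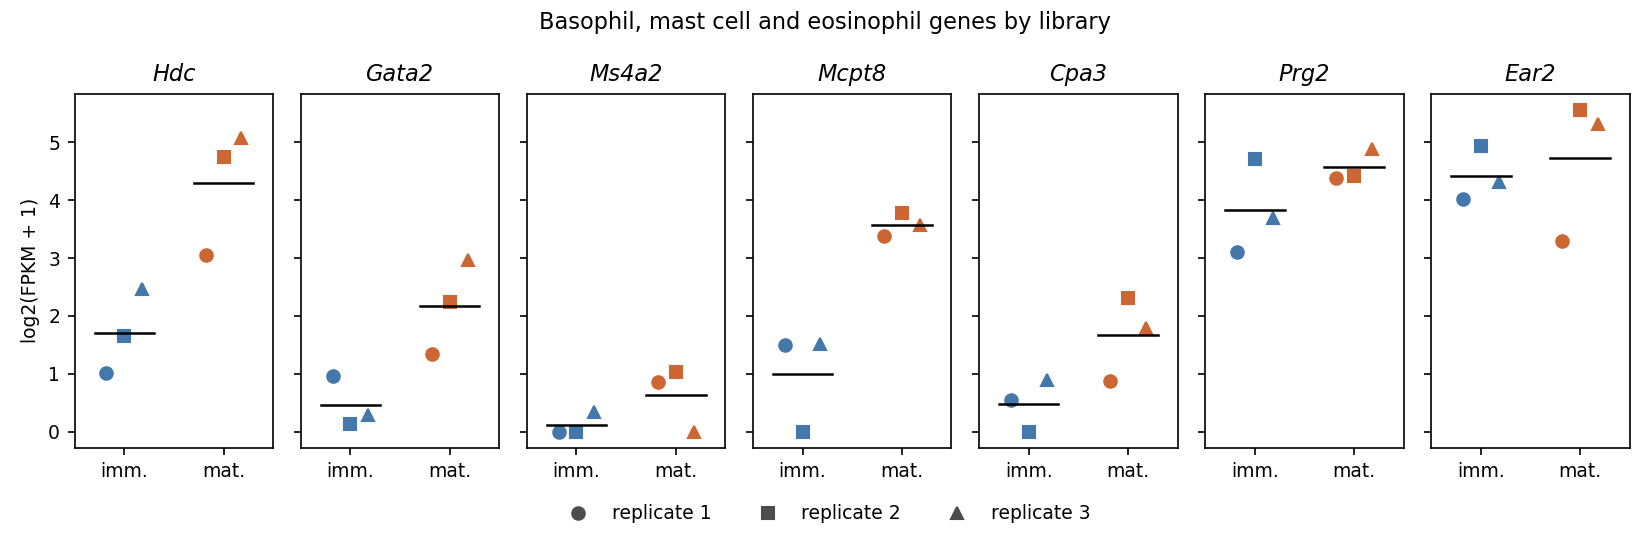
Level of each of the 7 genes as log2(FPKM + 1), with the 3 immature libraries on the left of each panel and the 3 mature libraries on the right. Marker shapes give the replicate number and horizontal lines the group means, and the groups separate for Hdc, Gata2 and Mcpt8.

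Hdc, on chromosome 2 from 126593667 to 126619299 on the minus strand of GRCm38, was higher in each mature library than in any immature one. It stood at 1.02, 2.14 and 4.54 FPKM across immature libraries 1, 2 and 3, against 7.30, 25.9 and 32.7 FPKM across mature libraries 1, 2 and 3. Mature libraries 2 and 3 were high and mature library 1 lay nearer the immature range. The log2 fold change was 2.58 (SE 0.64, 95% interval 1.17 to 3.99), with an unadjusted p of 0.00211 and a limma adjusted p of 0.198. Fold changes are differences of log2(FPKM + 1), so those of low genes are understated, and the median gene was itself 0.38 higher in the mature group. Relative to that median, Hdc was 2.20 higher.

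The Hdc level came largely from its coding transcript Hdc-201, which made up between 69.2% and 93.1% of the gene's FPKM in every library. Without lipopolysaccharide that transcript was at 0.849, 1.96 and 3.55 FPKM, against 5.05, 21.6 and 30.4 FPKM after lipopolysaccharide. Of 3 processed transcripts of Hdc, which carry no annotated coding sequence, Hdc-205 starts 621 bases upstream of Hdc-201. Its value was 0 for each immature library and for mature library 3, and 2.003 and 2.10 FPKM in mature libraries 1 and 2. Hdc-202 was also 0 without lipopolysaccharide, with mature levels of 0.245, 1.59 and 0.0304 FPKM. Hdc-203 overlapped between the groups, from 0.17 to 0.995 FPKM in the immature libraries and from 0 to 2.23 FPKM in the mature ones. Over all 7 genes, 12 transcripts were listed and 7 tested, and 0 passed limma at an adjusted p under 0.05 among 15972 transcripts, of which 0.0751% passed. At an unadjusted p under 0.05 there were 3 higher, Hdc-201, Gata2-201 and Mcpt8-201, against 7.39% of all transcripts. Gata2-201 and Mcpt8-201 passed the filter through their mature libraries, so that count is a description only.

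Other genes of histamine handling were near the lower limit of the table. Of 8 genes in the list, 4 had values, 2 were tested and 0 passed limma, adjusted or unadjusted. The median log2 fold change was 0.33, against 0.38 for all genes. Slc18a2, the vesicular transporter that loads histamine into granules, ranged from 0.06 to 1.23 FPKM in the immature libraries and from 0.34 to 1.28 FPKM in the mature ones. Hnmt, the enzyme that methylates and inactivates histamine, was at 0.17 to 0.52 FPKM and at 0 to 1.60 FPKM. The receptor genes Hrh1 and Hrh2 stayed at or below 0.66 FPKM in all 6 libraries and were not tested.

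Gata2, on chromosome 6 from 88193891 to 88207032 on the plus strand, was low in the immature libraries and higher in every mature one. Its levels were 0.949, 0.0936 and 0.225 FPKM in immature libraries 1 to 3 and 1.53, 3.72 and 6.79 FPKM in mature libraries 1 to 3. The log2 fold change was 1.72 (SE 0.52, 95% interval 0.56 to 2.87), with an unadjusted p of 0.00768 and a limma adjusted p of 0.318. It was 1.33 above the median of all genes.

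Both coding transcripts of Gata2 had values above 0 in mature libraries 2 and 3, and Gata2-201 alone in mature library 1. Gata2-202 begins 4443 bases upstream of Gata2-201 and was at 0, 1.06 and 4.39 FPKM in mature libraries 1, 2 and 3, or 0%, 28.5% and 64.6% of the gene. Gata2-201 was at 1.53, 2.66 and 2.40 FPKM there. The immature values of Gata2-202 were 0, 0.0936 and 0, and those of Gata2-201 were 0.949, 0 and 0.225 FPKM.

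Among other transcription factors of these lineages, 20 of 22 were tested and 0 passed the adjusted threshold. At an unadjusted p under 0.05, 4 were higher and 0 lower, against 9.52% and 0.224% of all genes. All mature levels lay above all immature ones for 6, against 16.7% of all genes. The median log2 fold change was 0.67, against 0.38 for all genes. Stat5a and Stat5b, which transmit signals of the GM-CSF and interleukin-3 receptors, had log2 fold changes of 1.75 (limma adjusted p = 0.248) and 1.01 (limma adjusted p = 0.498). Lmo2, an adaptor of GATA complexes, was at 11.5 to 13.1 FPKM in the immature group and 19.9 to 37.1 FPKM in the mature group (limma adjusted p = 0.437). Irf8, a factor of monocyte and dendritic cell fate, had a log2 fold change of 1.46 (limma adjusted p = 0.439). Gata1, a relative of Gata2 in mast cells, eosinophils and red cells, overlapped between the groups, at 0.29, 0 and 2.08 FPKM against 1.07, 2.18 and 3.48 FPKM.

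Ms4a2, on chromosome 19 from 11616957 to 11623719 on the minus strand, was near 0 throughout. Its immature values were 0, 0 and 0.271 FPKM and its mature values 0.809, 1.04 and 0 FPKM. Only 2 libraries reached 0.5 FPKM, so the gene was not tested. The signal came from Ms4a2-201 in mature library 1 and from Ms4a2-202 in immature library 3 and mature library 2. A 2-sided exact permutation test of the levels gave p = 0.4, where 3 against 3 cannot go below 0.1.

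The alpha chain of the same receptor was scarcer still. Fcer1a, whose protein binds IgE itself, had a value of 0 for each immature library and for mature library 1, and 0.61 and 0.37 FPKM in mature libraries 2 and 3. The gamma chain gene Fcer1g, which many myeloid cells share, was at 106 to 121 FPKM in the immature group and 105 to 267 FPKM in the mature group. Of the 13 genes of receptor and proximal signalling, 12 were tested and 0 passed. By unadjusted p 2 were higher and 0 lower, against 9.52% and 0.224% of all genes. The median log2 fold change was 0.33, against 0.38 for all genes. Syk, the kinase that docks on the gamma chain, had all mature levels above the immature ones, at 20.0, 11.8 and 22.0 FPKM against 50.1, 41.0 and 66.5 FPKM (limma adjusted p = 0.343). Lcp2, an adaptor downstream of Syk, had a log2 fold change of 1.11 (limma adjusted p = 0.501).

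Growth factor and cytokine receptor genes of the lineages were 20, of which 13 were tested, with 0 called, 0 at an unadjusted p under 0.05 in either direction, and a median log2 fold change of 0.46. The median log2 fold change of all genes was 0.38. Mature levels lay wholly above immature ones for 4 of the 13 and wholly below for 1, against 16.7% and 0.642% of all genes. Kit, the gene of the stem cell factor receptor that mast cells carry, peaked at 1.06 FPKM in mature library 2. It was listed at 0 in immature library 1. Csf2rb, the beta chain shared by GM-CSF, interleukin-3 and interleukin-5 receptors, was at 96.7 to 111 FPKM against 156 to 249 FPKM. Its relative Csf2rb2, which serves interleukin-3 in mice, was at 30.1 to 48.8 FPKM against 51.4 to 93.6 FPKM. Neither passed, with limma adjusted p = 0.628 and 0.674.

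Mcpt8, on chromosome 14 from 56082166 to 56085197 on the minus strand, was higher in each mature library than in any immature one. It was at 9.38, 12.8 and 10.8 FPKM in mature libraries 1 to 3, against 1.81 and 1.86 FPKM in immature libraries 1 and 3 and a listed 0 in immature library 2. The log2 fold change was 2.57 (SE 0.54, 95% interval 1.38 to 3.76). Its unadjusted p of 0.000638 ranked 52nd of 10277 genes, and the limma adjusted p was 0.12. Mcpt8 passed the filter through its mature libraries, so that rank is a description only. Without immature library 2 the log2 fold change was 2.07, with limma adjusted p = 0.183. In that library 11.3% of tested genes were listed at 0, against 0.623% to 5.02% in the other 5.

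Cpa3, on chromosome 3 from 20215620 to 20242181 on the minus strand, was the weaker of the granule enzymes. Its immature levels were 0.464, 0 and 0.86 FPKM, and its mature levels 0.845, 3.97 and 2.48 FPKM. Mature library 1 fell just inside the immature range. The log2 fold change was 1.18 (SE 0.48, 95% interval 0.11 to 2.26), with an unadjusted p of 0.0337 and a limma adjusted p of 0.462. The unadjusted p rose above 0.05 without immature library 1, immature library 2, mature library 2 or mature library 3, at 0.0716, 0.101, 0.113 and 0.0779.

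Of 16 other granule genes, 7 had values and were tested. None of these 7 passed limma (0 called). At an unadjusted p under 0.05 there were 3 higher and 0 lower, against 9.52% and 0.224% of all genes. The median log2 fold change was 1.24, against 0.38 for all genes. Srgn, whose protein is the proteoglycan core that packs granule proteases and is expressed by most blood cells, was at 137, 52.8 and 46.6 FPKM against 354, 466 and 536 FPKM (limma adjusted p = 0.157). Prss34, a second protease of mouse basophils, was at 2.23, 12.7 and 2.63 FPKM against 11.1, 15.3 and 14.9 FPKM, and immature library 2 overlapped the mature range (limma adjusted p = 0.477). Gzmb, the granzyme B gene of cytotoxic cells, overlapped as well, from 2.39 to 8.64 FPKM against 6.77 to 38.7 FPKM (limma adjusted p = 0.435). The chymase and tryptase genes of connective tissue and mucosal mast cells were looked for but had no values under these names, so their levels are unknown. They were Mcpt1, Mcpt2, Mcpt4, Mcpt9, Cma1, Cma2, Tpsb2, Tpsab1 and Tpsg1.

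Prg2, on chromosome 2 from 84980461 to 84983632 on the plus strand, did not separate. Levels were 7.63, 25.2 and 11.9 FPKM in the immature libraries and 19.9, 20.4 and 28.6 FPKM in the mature ones, and immature library 2 exceeded mature libraries 1 and 2. The means were 14.9 ± 9.15 FPKM (SD, n = 3) and 23.0 ± 4.85 FPKM (SD, n = 3), with a 2-sided exact permutation p of 0.3. The log2 fold change of 0.73 had a 95% interval from -0.44 to 1.89 (limma adjusted p = 0.685). It was 0.36 without immature library 1 and 1.16 without immature library 2.

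Ear2, on chromosome 14 from 44102654 to 44103534 on the plus strand, was the most abundant of the 7 on average in both groups. Immature libraries 1 to 3 held 15.3, 29.4 and 19.0 FPKM, and mature libraries 1 to 3 held 8.80, 46.3 and 38.6 FPKM. Mature library 1 was the lowest of all 6 and mature libraries 2 and 3 the highest. The means were 21.2 ± 7.34 FPKM (SD, n = 3) and 31.2 ± 19.8 FPKM (SD, n = 3), with a 2-sided exact permutation p of 0.5. The log2 fold change of 0.30 (95% interval -1.12 to 1.71, limma adjusted p = 0.923) was 1.01 when mature library 1 was left out, -0.12 when mature library 2 was, and 0.0036 when mature library 3 was. It was 0.087 below the median of all genes, and negative under each of 4 other scalings of the libraries.

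Other eosinophil granule genes and ribonucleases went in both directions, 5 with positive and 3 with negative log2 fold changes. Of 11 genes 8 were tested, with 0 called and 0 at an unadjusted p under 0.05 in either direction. The median log2 fold change was 0.12, against 0.38 for all genes. Rnase2a, a close relative of Ear2, was at 164, 249 and 83.6 FPKM against 68.8, 234 and 164 FPKM (limma adjusted p = 0.975). Ear6 was at 4.01, 2.53 and 9.19 FPKM against 6.19, 33.8 and 13.2 FPKM (limma adjusted p = 0.518). The eosinophil peroxidase gene Epx stayed between 0.65 and 2.37 FPKM in all 6 libraries. Mouse eosinophil-associated ribonuclease genes are near copies of each other, and how reads matching several copies were divided is not given in the sources used here, so the division of signal among Ear2, Ear1, Ear6 and Rnase2a is uncertain.

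The 7 genes kept nearly the same order of level in both groups, and many neighbours in that order overlapped. By mean FPKM the immature order was Ear2, Prg2, Hdc, Mcpt8, Cpa3, Gata2 and Ms4a2. Only Prg2 and Hdc, among neighbours there, had ranges apart, 7.63 to 25.2 FPKM against 1.02 to 4.54 FPKM. In the mature group Gata2 and Cpa3 changed places, and only Mcpt8 and Gata2 had ranges apart, 9.38 to 12.8 FPKM against 1.53 to 6.79 FPKM.

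The share of each gene in the summed FPKM of the 7 within a library does not depend on how libraries are scaled to each other. The sum was 27.1, 56.8 and 38.7 FPKM in immature libraries 1 to 3 and 48.6, 114 and 120 FPKM in mature libraries 1 to 3. The eosinophil granule genes Ear2 and Prg2 together made up 84.4%, 96.1% and 79.9% of it in the immature libraries and 59.1%, 58.5% and 56.0% in the mature ones. Hdc made up 3.75%, 3.77% and 11.8% against 15.03%, 22.7% and 27.3%. The Mcpt8 share was 6.66%, 0% and 4.81% against 19.3%, 11.2% and 9.02%. Within a library the ratio of Hdc to Ear2 was 0.0667, 0.0728 and 0.239 in the immature group and 0.829, 0.559 and 0.846 in the mature group. The ratio of Hdc to Prg2 was 0.134, 0.0851 and 0.382 against 0.367, 1.27 and 1.14, so mature library 1 fell inside the immature range. The groups did not overlap for the 3 shares or for the ratio of Hdc to Ear2. Taken singly, the share of Ear2 was 49.1% to 56.3% against 18.1% to 40.6%. The shares of Prg2, Gata2, Cpa3 and Ms4a2 overlapped, that of Prg2 at 28.1% to 44.3% against 17.9% to 41.0%. Shares of a library make up a whole, so a fall in some and a rise in others are not separate results. These shares and ratios were chosen after the values were seen and were not tested.

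**Figure D2:**
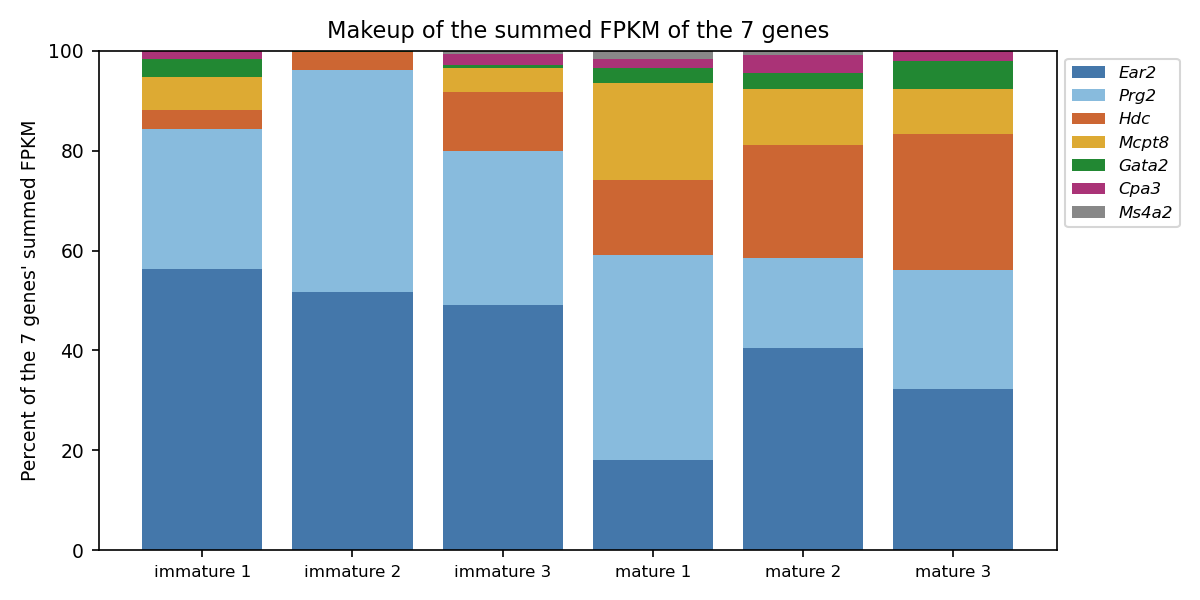
Percent of the summed FPKM of the 7 genes that each gene makes up in each library, as stacked bars from 0 to 100. Ear2 and Prg2, in blue, fill 79.9% to 96.1% of the bars of the immature libraries and 56.0% to 59.1% of the bars of the mature libraries.

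A gene's percentile within its own library, among the 12384 listed genes, gives a second view free of scaling. Genes listed at 0 share the middle of their ranks. Mcpt8 stood at percentiles 45.5, 10.4 and 39.9 in the immature libraries and 83.2, 75.7 and 74.6 in the mature ones. Hdc moved from 33.3, 57.6 and 61.4 to 79.0, 87.4 and 91.1, and Gata2 from 31.9, 23.5 and 12.2 to 45.1, 46.9 and 64.1. For these 3 genes and for Cpa3, at 20.6, 10.4 and 25.4 against 34.4, 48.3 and 40.7, every mature percentile was above every immature one. Mature library 1 held the lowest mature FPKM for 6 of the 7 genes, all but Ms4a2, yet the highest mature percentile of Mcpt8 and Prg2. Prg2 ranged from 79.4 to 93.8 in the immature group and from 84.0 to 92.1 in the mature group. Ear2 ranged from 89.2 to 94.8 and from 82.1 to 93.1, so both stayed in the upper part of every library.

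**Figure D3:**
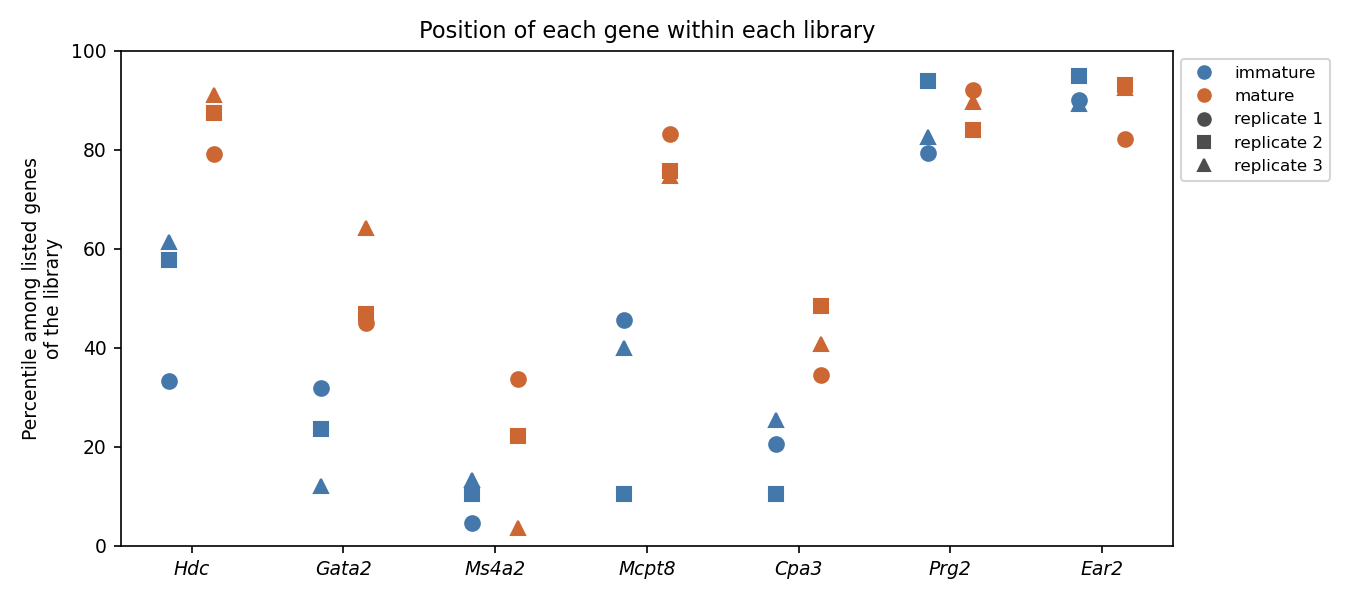
Percentile of each of the 7 genes among all listed genes of the same library, with immature libraries in blue, mature libraries in orange and marker shapes for the replicate number. The groups separate for Hdc, Gata2, Mcpt8 and Cpa3, while Prg2 and Ear2 lie at 79.4 or above in all 6 libraries.

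Set against all tested genes, the fold changes of Hdc and Mcpt8 lay at the 99.4th percentile for both, Gata2 at the 97.2nd and Cpa3 at the 90.6th. Prg2 lay at the 73.1st and Ear2 at the 43.6th. Gata2, Mcpt8 and Cpa3 passed the filter through their mature libraries, so these positions and the count below are a description only. The middle 80% of genes, from the 10th to the 90th percentile, spanned -0.28 to 1.16. Median-of-ratios scaling, which brings the median gene to 0.02, gave log2 fold changes of 2.15 for Hdc, 2.30 for Mcpt8, 1.42 for Gata2, 0.94 for Cpa3, 0.24 for Prg2 and -0.21 for Ear2. Under it 4 of the 6 tested genes had groups that did not overlap, Cpa3 being added, against 7.6% of all genes. The same scaling moved the split of all genes at an unadjusted p under 0.05 from 978 higher and 23 lower to 480 higher and 237 lower.

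**Figure D4:**
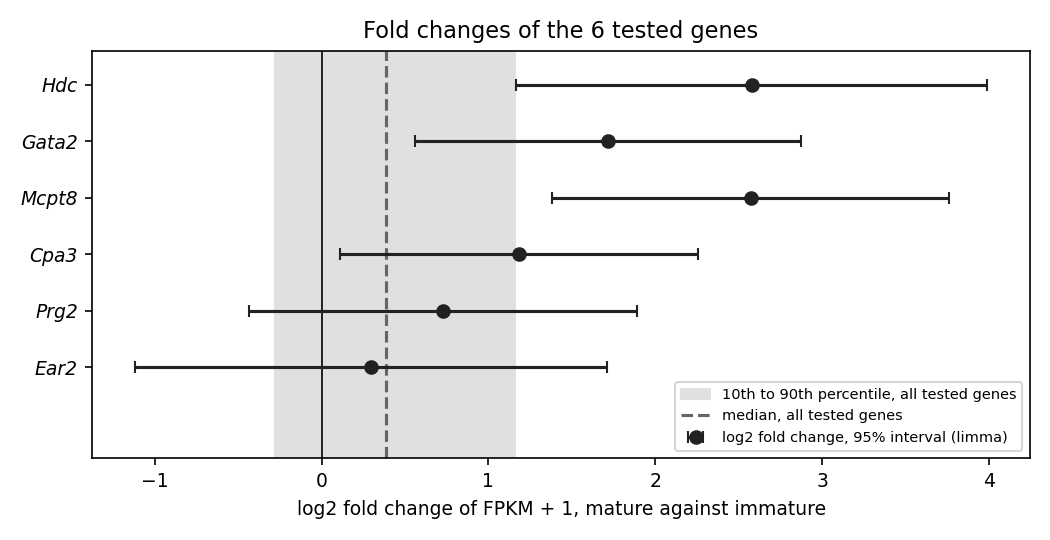
Log2 fold change of FPKM + 1 between mature and immature libraries for the 6 tested genes, as points with 95% intervals from limma. The grey band spans the 10th to 90th percentile of all tested genes, and the points of Hdc, Mcpt8, Gata2 and Cpa3 lie above it while those of Prg2 and Ear2 lie inside.

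Immature library 2 and mature library 1 held the fewest transcripts at 0.5 FPKM or more, 10912 and 12924, against 15432 to 18775 in the other 4. Leaving out mature library 1 raised the number of tested genes with groups that did not overlap from 3 to 5 (Cpa3 and Ear2 added), where the share of all genes rose to 40.8%. With both libraries left out all 6 tested genes separated, against 47.5% of all genes, and still 0 were called, the lowest limma adjusted p being 0.0708 for Hdc. For that setting the filter asked for 0.5 FPKM in at least 2 of the remaining libraries, and 10779 genes were tested. Mature library 1 held the lowest mature level of each of the 6 genes. Immature library 2 held the highest immature level of Prg2 and Ear2. Leaving them out therefore favours separation of these genes. Read totals are unknown, since FPKM values are not counts.

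Secreted products and lipid mediator enzymes of these lineages, most of them made by many other cells, held 10 tested genes, with 0 called. By the unadjusted threshold 5 were higher and 0 lower, against 9.52% and 0.224% of all genes. The median log2 fold change was 1.15, against 0.38 for all genes. Il6, the interleukin-6 gene, was at 0, 1.77 and 0.17 FPKM against 6.52, 11.8 and 13.9 FPKM (limma adjusted p = 0.0914). The chemokine genes Ccl3 and Ccl4 had log2 fold changes of 1.62 and 1.65, and Csf1, the macrophage growth factor gene, one of 1.21, with limma adjusted p from 0.407 to 0.446. Il4, the interleukin-4 gene, which basophils are known to express, was listed at 0 in the 3 mature libraries and in immature library 2 and reached 0.69 FPKM in immature library 1. It was chosen after its values were seen.

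Of 8 tested surface markers of basophils and mast cells, 0 were called. At an unadjusted p under 0.05 there were 2 higher and 0 lower, against 9.52% and 0.224% of all genes. The median log2 fold change was 0.79, against 0.38 for all genes. Slamf1, a receptor that activated lymphocytes and dendritic cells also carry, was at 0.21, 0 and 0.64 FPKM against 6.12, 3.89 and 10.6 FPKM (limma adjusted p = 0.102). Il2ra, the interleukin-2 receptor alpha chain gene, was at 0.65 to 0.97 FPKM against 4.41 to 7.58 FPKM (limma adjusted p = 0.157). Ms4a3, a marker of granulocyte progenitors and basophils, overlapped, from 1.59 to 40.2 FPKM in the immature group and from 4.51 to 14.8 FPKM in the mature group. Over the 8 lists of lineage genes, 80 genes were tested and 0 were called. At an unadjusted p under 0.05 there were 16 higher and 0 lower, against the same shares of all genes, 9.52% and 0.224%. Mature levels lay wholly above immature ones for 21 of the 80 genes and wholly below for 1, Cd200r1, against 16.7% and 0.642% of all genes. Some tested genes of these lists passed the filter through their mature libraries, among them Il6 and Slamf1, each with 1 immature library at 0.5 FPKM. The counts over these lists are therefore a description only.

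**Figure D5:**
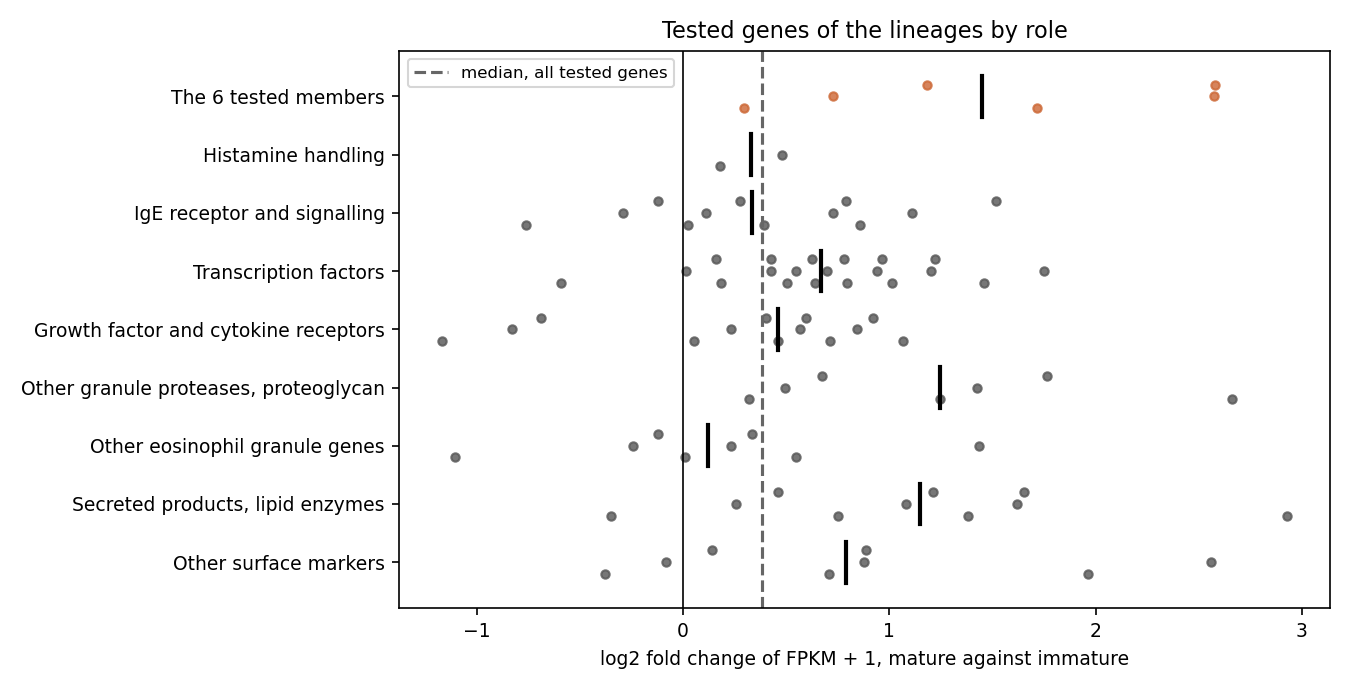
Log2 fold change of FPKM + 1 for each tested gene, 1 point per gene, with the 6 tested members in orange and the other genes of the lineages in grey by role. Black bars are list medians and the dashed line is the median of all tested genes, 0.38. Medians were 1.45 for the tested members and 0.12 for other eosinophil granule genes. Of the members, Gata2, Mcpt8 and Cpa3 passed the filter through their mature libraries.

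Markers of other cell types give the setting of these levels. The 14 dendritic cell genes with values summed to 1975 to 2583 FPKM in the immature libraries and 3559 to 5496 FPKM in the mature ones, led by Ccl17 and Cd74. Of the 12 tested, 3 were higher at an unadjusted p under 0.05, against 9.52% of all genes, and 0 were called. The log2 fold changes of Ccl17 and Cd74 were 0.74 and 1.01, and the groups overlapped for both. Flt3 and Cd209a were not tested and were each listed at 0 in at least 2 libraries. All 12 tested genes were above 0 in every library, with Zbtb46 at 0.33 to 2.54 FPKM and Batf3 at 13.5 to 47.0 FPKM. The 14 macrophage and monocyte genes, with Lyz2 and Ly6c2 the most abundant, summed to 229 to 421 FPKM and 197 to 658 FPKM, against 27.1 to 120 FPKM for the 7 granulocyte genes. In that list 1 of 14 tested genes was called higher, against 0.185% of all genes. It was Cd14, the lipopolysaccharide co-receptor gene, at 4.39 to 5.62 FPKM against 31.8 to 84.4 FPKM. Marco was listed at 0 in every immature library.

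Summed levels of neutrophil markers and of erythroid and megakaryocyte markers were highest in immature library 3 and mature library 2. Single genes differed, Pf4 being highest in immature library 1 and mature library 3, and Mmp9 in immature library 1 and mature library 1. The 14 neutrophil genes, led by S100a8 and S100a9, summed to 207, 236 and 1279 FPKM in the immature libraries and 262, 1377 and 463 FPKM in the mature ones, and 12 erythroid and megakaryocyte genes to 49.6, 60.9 and 504 FPKM and 64.4, 325 and 91.4 FPKM. Hbb-bs and Hba-a1 were the most abundant erythroid genes. Mcpt8, at 1.86 and 12.8 FPKM, Cpa3, at 0.86 and 3.97 FPKM, and Ms4a2, at 0.271 and 1.04 FPKM, were also highest within their groups in immature library 3 and mature library 2. For Mcpt8, immature library 1 was close behind, at 1.81 FPKM. Ear2 was highest in immature library 2 and mature library 2, and Prg2 in immature library 2 and mature library 3. Hdc was highest in immature library 3 and mature library 3, and Gata2 in immature library 1 and mature library 3. T and NK cell markers, with Nkg7 and Il2rb in front, summed to 3.46 to 21.0 FPKM and 7.25 to 24.7 FPKM, and B and plasma cell markers, with Cd79b and Cd79a, to 1.06 to 6.25 FPKM and 2.44 to 4.47 FPKM. Both overlapped between the groups. None of the tested genes in these 4 lists passed limma, adjusted or unadjusted (0 of 14, 9, 6 and 3). The part of other cell types in the levels of the 7 genes was not tested.

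Genes with the most similar pattern were sought among 9039 tested genes with a mean of at least 1 FPKM. Likeness was the root-mean-square difference between log2(FPKM + 1) values over the 6 libraries, after each gene's mean was subtracted, so that 0 is an identical pattern. Nearest to Hdc were Il1f9, Ly6i and Aup1, at 0.28, 0.31 and 0.33. Nearest to Gata2 were Xpa, Sap18b and Psd4, at 0.19, 0.20 and 0.21. For Mcpt8 they were Gpank1, Irak3 and Layn, at 0.32, 0.33 and 0.36, and for Cpa3 Lrrc42, Vps26b and Fam49b, at 0.11, 0.11 and 0.12. Nearest to Prg2 were Farsa, Zfp787 and Bcl7c, at 0.091, 0.098 and 0.10, and nearest to Ear2 were Ticam2, Chek2 and Mrpl32, at 0.16, 0.18 and 0.19. No lineage gene of the 8 lists was among these, and with 6 libraries and 9039 genes searched, close matches occur for many patterns.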

How the data were processed

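Per the file headers, the table the authors deposited gives FPKM in each library for 27544 transcripts of 12384 genes. Named in the submitters' processing notes, without roles, are StringTie, cutadapt, STAR 2.5.2b and HISAT2 2.0.5, beside hg19, a human build. Identifiers in the table are mouse Ensembl ones, and the listed positions of 7 of the 7 genes overlapped the RefSeq gene on GRCm38.p6, so they are read on GRCm38. Groups and replicate numbers came from the sample titles, and 0 columns of values were left unused. Strand use and the treatment of reads with several matches are not given in the sources used here.

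Gene levels are sums of transcript FPKM. Features at 0.5 FPKM or more in at least 3 of 6 libraries were fitted with limma 3.58.1 in R 4.3.3 (trend and robust options, group only) on log2(FPKM + 1), with Benjamini-Hochberg adjustment over all 10277 genes or 15972 transcripts and a threshold of 0.05. The procedure was tested on simulated data, where large changes were mostly called and small ones mostly were not. Few genes were called at simulated log2 changes of 1 and 2, so the absence of calls says little about changes of that size. The pass mark of this test was loosened after its first result was seen. Per-gene levels were also compared with 2-sided exact permutation tests. Count models were not used, since FPKM values are not counts. Zeros in the table may be failed estimates. Members and gene lists were chosen with earlier results of these data known. Besides the 7 genes, the text names, per lineage list, up to 4 genes at an unadjusted p under 0.05 or else the 2 most abundant, the 2 most abundant per marker list, and the 3 nearest patterns. Fcer1a, Fcer1g, Gata1, Kit, Epx, Hrh1, Hrh2, Ms4a3, Il4, Cd200r1, Flt3, Cd209a, Zbtb46, Batf3, Cd14, Marco, Pf4 and Mmp9 fall outside that rule, picked with values in view. Promoter windows are RefSeq's, searched in Python 3.11.15. Alternatives covered pseudocount, filter, scaling, left-out libraries, replicate block, variance model and the most abundant transcript. Total-sum scaling was added after seeing the data.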

Additional observations from a re-analysis of the deposited data

How the results depend on the processing

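No alternative called any of the 7 genes (0 in each of the 17 settings tried besides the main one). Hdc, Gata2, Mcpt8, Cpa3 and Prg2 were higher in the mature group under all 17. Their log2 fold changes were 2.14 to 3.20, 1.24 to 3.11, 2.07 to 3.93, 0.86 to 2.505 and 0.22 to 1.25. Hdc, Gata2 and Mcpt8 had an unadjusted limma p under 0.05 in each. Of all genes, 3.54% (without mature replicate 3) to 19% (both immature 2 and mature 1 left out) were higher at that threshold. Gata2 and Mcpt8 passed the main filter through their mature libraries, and all settings reuse the same libraries. Persistence across settings is therefore a description only. Limma adjusted p ran from 0.0708 to 1.00 for Hdc, 0.131 to 1.00 for Gata2 and 0.0765 to 0.904 for Mcpt8. Ear2 turned to -0.21 with median-of-ratios, -0.23 with upper-quartile and -0.067 with total-sum scaling and to -0.24 with quantile normalization, and ranged from -0.12 to 1.01 with 1 library left out. Ms4a2, tested only without the filter, had a log2 fold change of 0.51 (limma adjusted p = 0.701). The count of all genes called, 19, was 9 with a pseudocount of 0.1, 12 with median-of-ratios scaling, 0 to 27 with 1 library left out and 72 with both immature 2 and mature 1 left out. Tested members higher with no overlap, 3, numbered 3 to 5 with 1 library left out and 6 with those 2 left out, while the share of all genes was 16.7% with all libraries, 18.6% to 40.8% with 1 left out and 47.5% with both left out. With the replicate number as a replicate block, 5 genes were called. Same-numbered libraries did not deviate together (correlations of -0.03, -0.45 and -0.13), so the numbers were not taken to pair the samples. Between differently numbered libraries the correlations ran from -0.40 for immature 3 with mature 1 to 0.53 for immature 3 with mature 2. The causes were not tested. Low levels limit what Ms4a2, Cpa3 and Gata2 can show, and depth is unknown.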
